A study of Mus musculus with 8 samples.

Results

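The mitochondrial genome of the mouse encodes part of the respiratory chain, and 10 of its messenger RNAs are described here: mt-Nd1, mt-Nd2, mt-Nd4, mt-Nd5 and mt-Nd6 of complex I, mt-Cytb of complex III, mt-Co1, mt-Co2 and mt-Co3 of complex IV, and mt-Atp6 of complex V. They were chosen by name and are 10 of the 13 mitochondrial mRNAs in the deposited files. The remaining mRNAs, mt-Nd3, mt-Nd4l and mt-Atp8, entered every sum of mitochondrial mRNAs, and the mitochondrial ribosomal RNAs were not analysed here. All 10 were among the 17997 genes that passed the filter on low counts.

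RNA came from muscle stem cells (MuSCs), the Pax7-expressing progenitors of skeletal muscle, sorted by the nuclear GFP of Pax7CreERT2-Rosa26nTnG mice, all male by the study's methods and aged 5 to 6 months, from the gastrocnemius and quadriceps. The reporter is switched on in Pax7-expressing cells by tamoxifen, which both diets received in the final week. Mice ate a vitamin A-free diet (VA-free, 3 mice) or normal chow (CTRL, 2 mice) for 8 weeks. The labels give up to 2 technical libraries, A and B, per mouse (4 libraries per diet), made by splitting its RNA before column purification, and their counts were added so that n is mice. The libraries held between 44831232 and 88650428 estimated counts, and the deepest was VA-free 1B.

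Mitochondrial DNA is read from both strands into long precursors, and excision of the transfer RNAs that lie between most genes releases the mRNAs. The strands are named heavy and light, and mt-Nd6 is the sole mRNA read from the light-strand promoter. The encoded proteins are core subunits that combine with many nuclear-encoded subunits in the inner membrane, where the chain passes electrons to oxygen and drives ATP synthesis. Quiescent MuSCs carry few mitochondria, and respiration rises when the cells activate.

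The 3′ ends of the mRNAs bear on how they were sampled, because the cDNA was primed with oligo-dT from the poly(A) tail. The tails themselves were not measured here, so capture may differ between mRNAs, mt-Nd6 included. In the GENCODE vM21 transcripts of build GRCm38, mt-Nd4, mt-Co3 and mt-Cytb run 1 base past their last whole codon and end in a bare T, to which the tail adds the rest of the stop codon. mt-Nd1 and mt-Nd2 end in TAG, and the other 5 end in TAA. The last 30 bases of the transcripts with the incomplete stop, with that base in capitals, are as follows, at chrM:11515-11544, chrM:9361-9390 and chrM:15259-15288 on the plus strand.
mt-Nd4: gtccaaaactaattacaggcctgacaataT
mt-Co3: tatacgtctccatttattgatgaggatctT
mt-Cytb: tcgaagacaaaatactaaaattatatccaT

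mt-Nd6 lies antisense to the end of mt-Nd5, and both annotated genes cover 14 bases at chrM:13552-13565. The last 30 bases of each transcript are given 5′ to 3′ with the shared bases in capitals, which are reverse complements of each other.
mt-Nd5: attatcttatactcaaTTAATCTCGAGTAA
mt-Nd6: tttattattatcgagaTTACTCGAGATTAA
The library kit does not mark strand. Reads from mt-Nd6 mRNA and from antisense heavy-strand RNA therefore cannot be told apart anywhere along mt-Nd6, not only in the shared bases. The composition of mt-Nd6 also stood apart, with 28.1% G and 5.97% C, whereas G made up 8.0% to 16.1% of the other 9 mRNAs.

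All 10 mRNAs were lower on the VA-free diet, by log2 fold changes of -2.16 to -3.24, and the 3 VA-free mice lay below both CTRL mice for each of them. The median over the 10 was -2.67, beside 0.003 over all genes tested. All 10 were called lower by the quasi-likelihood test of edgeR, with p-values adjusted by the Benjamini-Hochberg method of at most 0.000446. The same test called 22.5% of all genes as lower and 41.4% in either direction, and in 32.3% of all genes every VA-free mouse was below every CTRL mouse. Of all genes called, 54.4% were lower, a share that was 31.3% when TPM values with a pseudocount of 1 were tested with limma, where the median of all genes moved to 0.192 and that of the 10 mRNAs to -2.23.

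The levels per mouse are given as CPM, counts scaled to a common library size with TMM, on which genes are not corrected for length. Complex I, which takes electrons from NADH, is represented by its proton-pumping membrane subunits. mt-Nd1, at chrM:2751-3707 on the plus strand, links the membrane arm to the peripheral arm, and stood at 624, 465 and 587 CPM in VA-free mice 1, 2 and 3 and at 2970 and 3040 CPM in CTRL mice 1 and 2. The diets were separated by a wide gap, and the CTRL mice differed by less than the VA-free mice did. The log2 fold change was -2.43 (SE 0.15, 95% interval -2.79 to -2.06, edgeR adjusted p = 0.000226).

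mt-Nd2, at chrM:3914-4951 on the plus strand, was at 142, 99.7 and 130 CPM in the VA-free mice and at 1040 and 1220 CPM in the CTRL mice. It encodes an antiporter-like subunit of the membrane arm, and its VA-free level was 11% of the CTRL level in the fit (log2 fold change -3.18, SE 0.18, edgeR adjusted p = 0.000223). mt-Nd4, at chrM:10167-11544 on the plus strand, was at 421, 314 and 378 CPM against 3070 and 3510 CPM. It encodes another antiporter-like subunit and fell by a similar factor, with a log2 fold change of -3.15 (SE 0.16, edgeR adjusted p = 0.000204).

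mt-Nd5, at chrM:11742-13565 on the plus strand, is the longest of the mRNAs at 1824 bases and was at 258, 207 and 267 CPM in the VA-free mice and 1450 and 1900 CPM in the CTRL mice. Its log2 fold change was -2.78 (SE 0.17, edgeR adjusted p = 0.000226). mt-Nd6, at chrM:13552-14070 on the minus strand, was the least abundant of the 10, at 33.0, 26.2 and 34.6 CPM against 262 and 329 CPM. It encodes a small membrane subunit of complex I and had the largest difference among the 10, a log2 fold change of -3.24 (SE 0.17, 95% interval -3.64 to -2.84, edgeR adjusted p = 0.000207). The interval of mt-Nd6 overlapped those of mt-Nd2, mt-Nd4, mt-Nd5, mt-Co1, mt-Co3, mt-Cytb and mt-Atp6, and lay clear of those of mt-Nd1 and mt-Co2. Differences between the mRNAs in this fit were not tested.

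mt-Cytb encodes the catalytic cytochrome b of complex III, which hands electrons from ubiquinol to cytochrome c. It lies at chrM:14145-15288 on the plus strand and was at 1410, 1060 and 1240 CPM in the VA-free mice and at 5580 and 7590 CPM in the CTRL mice. Its log2 fold change was -2.41 (SE 0.19, edgeR adjusted p = 0.000309), and the CTRL mice lay further apart than the VA-free mice.

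Complex IV reduces oxygen, and mt-Co1 encodes the subunit that holds its catalytic heme and copper centre. At chrM:5328-6872 on the plus strand, mt-Co1 was at 1620, 1140 and 1570 CPM in the VA-free mice and at 7440 and 9610 CPM in the CTRL mice (log2 fold change -2.56, SE 0.20, edgeR adjusted p = 0.00031). mt-Co2, at chrM:7013-7696 on the plus strand, encodes the subunit that accepts electrons from cytochrome c. It was at 752, 481 and 717 CPM against 2890 and 2930 CPM, the smallest difference among the 10, with a log2 fold change of -2.16 (SE 0.20, 95% interval -2.64 to -1.68, edgeR adjusted p = 0.000446). mt-Co3, at chrM:8607-9390 on the plus strand, encodes the third core subunit and was at 1900, 1190 and 1490 CPM against 11800 and 11300 CPM. Its log2 fold change was -2.92 (SE 0.21, edgeR adjusted p = 0.00025), and within the VA-free diet mouse 2 was the lowest, as it was for each of the 10 mRNAs.

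mt-Atp6 encodes the membrane subunit of ATP synthase that forms the proton path beside the rotor. It lies at chrM:7927-8607 on the plus strand and was at 839, 702 and 993 CPM in the VA-free mice and at 3980 and 5090 CPM in the CTRL mice. Its log2 fold change was -2.43 (SE 0.19, edgeR adjusted p = 0.000307). The annotated mt-Atp8 shares 43 bases with the start of mt-Atp6, and reads there cannot be assigned to either gene with certainty. By complex, the median log2 fold change was -3.15 for the 5 complex I mRNAs and -2.56 for the 3 complex IV mRNAs, without a test of that difference.

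**Figure D1:**
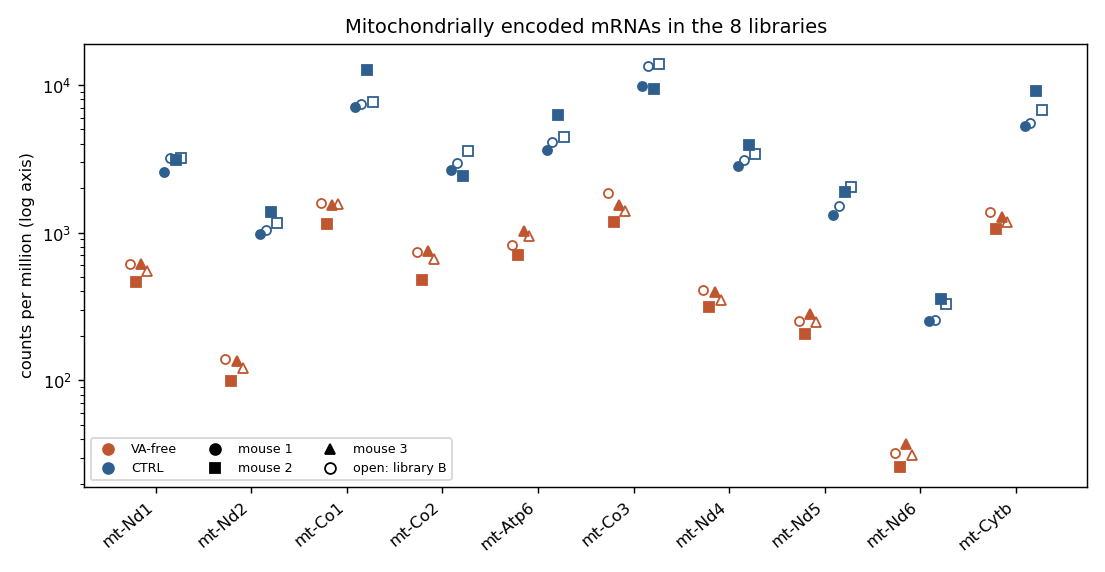
CPM on a log axis of the 10 mRNAs in each of the 8 libraries, with diet by colour, mouse by symbol and open symbols for B libraries. The 4 VA-free libraries of every mRNA lie below the 4 CTRL libraries, and mt-Co1 in CTRL 2A, at 12600 CPM, lies above the other CTRL libraries.

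**Figure D2:**
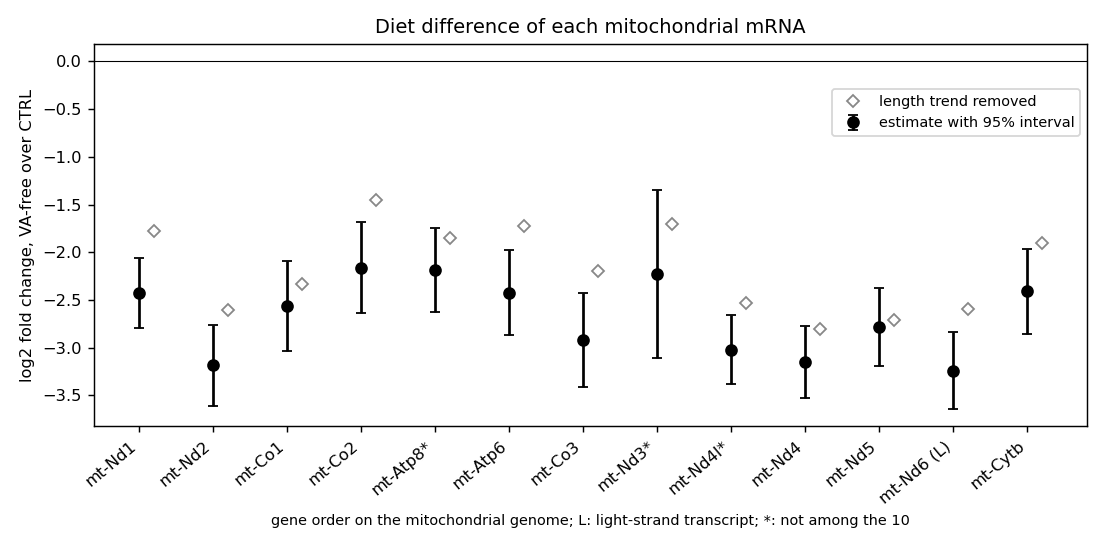
Log2 fold change of VA-free over CTRL (points, with 95% intervals from edgeR) for the 13 mitochondrial mRNAs in genome order, with the estimates after removal of the gene length trend as open diamonds. Among the 10 mRNAs described, points run from -2.16 for mt-Co2 to -3.24 for mt-Nd6, and all intervals lie below 0.

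The 3 other mitochondrial mRNAs of the annotation moved in the same direction. On the same strand, annotated mt-Nd4l shares 7 bases with mt-Nd4 and mt-Atp8 shares 43 with mt-Atp6. Their values are therefore not independent of those members. mt-Nd4l was called with a log2 fold change of -3.02 (edgeR adjusted p = 0.000204), mt-Atp8 with -2.19 (edgeR adjusted p = 0.000365) and mt-Nd3 with -2.23 (edgeR adjusted p = 0.00345). mt-Nd3 was at 3.79 to 8.88 CPM in the VA-free mice and 24.6 and 39.3 CPM in the CTRL mice, the lowest levels of the 13.

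Gene length and cell type markers moved with diet as well. Nuclear genes of 204 to 1824 bases, the span of the mitochondrial mRNAs, had a median log2 fold change of -0.45, and 36% of these 7353 genes were called lower, against 0.29 and 13.1% for the 10583 longer genes. Among the 1410 nuclear genes at least as abundant as mt-Nd6 in mean CPM, 23.7% were called lower and 2.27% had a log2 fold change below that of mt-Co2. With the trend on gene length taken out per mouse, the 10 mRNAs ranged from -2.80 for mt-Nd4 to -1.45 for mt-Co2, all called lower by edgeR with adjusted p-values of at most 0.00283. The same fit called 3158 of all 17997 genes lower. The fold changes of mt-Nd1, mt-Nd6, mt-Co2, mt-Co3 and mt-Atp6 shrank by more than 1.5 times in that fit, to log2 values of -1.78, -2.59, -1.45, -2.20 and -1.72.

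Of 12 MuSC markers, 11 were called higher on the VA-free diet and none lower, with a summed level of 7670 to 8230 CPM in VA-free libraries and 2830 to 4930 CPM in CTRL libraries. Markers of other cell types were lower, namely all 10 endothelial markers (summed level 256 to 325 against 1090 to 2790 CPM), all 6 Schwann cell markers (32.9 to 42.5 against 237 to 582 CPM) and 5 of 6 tenocyte markers (38.7 to 64.1 against 610 to 1150 CPM). The summed level of 15 myofiber markers was 377 to 500 CPM on the VA-free diet and 576 to 683 CPM on control chow, and 9 of them were called lower. For fibro-adipogenic progenitors, 4 of 8 markers were lower (summed level 6600 to 7630 against 7560 to 8290 CPM), and for macrophages 3 of 8 (23.4 to 146 against 178 to 835 CPM). Of the pericyte and smooth muscle markers 4 of 8 were lower and 1 higher (1560 to 1950 against 2300 to 2970 CPM), and of the erythroid markers 4 of 5 were lower (30.7 to 245 against 1190 to 1950 CPM). Among 10 genes of the dissociation response 2 were higher and 2 lower (29400 to 32600 against 21900 to 33000 CPM). Over all genes tested, 22.5% were called lower and 41.4% in either direction, and the dissociation count was near the latter share. No marker of these lists was at 0 in all libraries, and their part in the mitochondrial result was not tested. In these bulk samples, a lower share of mitochondrial RNA per cell and a smaller number of mitochondria-rich cells cannot be told apart.

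Together the 13 mRNAs took 0.857% of the gene counts of VA-free mouse 1, 0.59% of mouse 2 and 0.761% of mouse 3, and 3.96% and 4.78% in CTRL mice 1 and 2. Every VA-free mouse held less than every CTRL mouse, with a mean of 0.736% ± 0.135 (SD, n = 3) against 4.37% ± 0.582 (SD, n = 2). The difference of -3.63 percentage points had p = 0.1 in an exact two-sided permutation test, which is the smallest p that 3 against 2 mice allow. As a share of TPM, which weights short transcripts more, the difference was -5.9 percentage points. The 10 mRNAs made up 96.9% to 97.7% of the mitochondrial mRNA counts in every library.

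The rank of the mRNAs within each library moved accordingly. mt-Co3 ranked between 2 and 5 among all genes by count in the CTRL libraries and between 31 and 71 in the VA-free libraries. mt-Nd6 ranked between 406 and 617 in the CTRL libraries and between 5248 and 6515 in the VA-free libraries.

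Levels of different genes were compared per length, in TPM, a unit that divides counts by transcript length. On control chow the order from high to low was mt-Co3 at 21900 TPM, mt-Atp6 at 9980, mt-Cytb at 8210, mt-Co1 at 7710, mt-Co2 at 6410, mt-Nd1 at 4560, mt-Nd4 at 3370, mt-Nd2 at 1560, mt-Nd5 at 1290 and mt-Nd6 at 890 TPM, as means of 2 mice. mt-Atp6, mt-Cytb, mt-Co1 and mt-Co2 overlapped their neighbours between mice, as did mt-Nd2 and mt-Nd5, and the other steps were clear of the spread. Counts assigned to nuclear copies, described further on, are not in these levels, so the places of mt-Co1 and mt-Atp6 beside mt-Cytb are uncertain for that reason too. The VA-free order was the same except that mt-Co2 (1930 TPM) stood above mt-Co1 (1770 TPM) and mt-Nd5 (252 TPM) above mt-Nd2 (233 TPM), both of which are pairs whose mice overlapped. mt-Co3 was first at 3900 TPM ± 1010 (SD, n = 3) and mt-Nd6 last at 127 TPM ± 18.5 (SD, n = 3). CTRL over VA-free ratios of mean TPM ran from 3.32 for mt-Co2 to 6.99 for mt-Nd6.

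mt-Nd6 was then read against the heavy strand. Per 1000 counts of the 12 heavy-strand mRNAs, mt-Nd6 had 4.03, 4.49 and 4.55 counts in VA-free mice 1, 2 and 3 and 6.37 and 6.95 in CTRL mice 1 and 2. The diets did not overlap, and the libraries did not either, at 4.03 to 4.76 against 5.91 to 7. The mean log2 ratio was -7.84 ± 0.0966 (SD) in the 3 VA-free mice and -7.23 ± 0.0881 (SD) in the 2 CTRL mice, a difference of -0.61 (exact two-sided permutation p = 0.1, the smallest possible). Counts assigned to mt-Nd6 were thus lower relative to the heavy-strand mRNAs by more than the spread within either diet. No smaller p can be reached with 5 mice. The libraries do not mark strand, so these counts may include heavy-strand RNA and are not a measure of the light-strand mRNA alone. Whether oligo-dT captured mt-Nd6 as well as the heavy-strand mRNAs was not tested either.

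A lower ratio was not particular to mt-Nd6. Shares of the summed mitochondrial mRNA counts were also lower in every VA-free mouse for mt-Nd2, at 1.73%, 1.7% and 1.7% against 2.5% and 2.55%, and for mt-Nd4, at 5.12%, 5.36% and 4.95% against 7.41% and 7.35%. mt-Nd6 itself held 0.401%, 0.447% and 0.453% against 0.633% and 0.69%.

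In the other direction, the share of mt-Co2 was 9.14%, 8.22% and 9.39% in the VA-free mice and 6.97% and 6.14% in the CTRL mice. mt-Nd1 (7.74% ± 0.187 against 6.76% ± 0.558) and mt-Cytb (17.1% ± 0.917 against 14.7% ± 1.73) also held higher shares in each VA-free mouse (SD, n = 3 and n = 2). The share of mt-Co3 was lower, at 23.1%, 20.2% and 19.5% against 28.5% and 23.6%, while mt-Co1, mt-Atp6 and mt-Nd5 overlapped between the diets. Counting by overlap, 4 of the 10 shares were lower and 3 higher on the VA-free diet, and shares of a fixed whole are not independent of each other. The exact two-sided permutation p was 0.2 for mt-Co3 and 0.1 for the other 6.

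An edgeR fit that used the summed mitochondrial mRNAs as library size gave mt-Nd6 a relative log2 fold change of -0.61 (SE 0.29). Its edgeR p was 0.0391 and its adjusted p 0.0451, the only one of the 10 past the threshold. The adjustment ran over all genes tested, most of which this fit called, so it barely raised the p-value and the call carries little weight. No adjustment over the mitochondrial mRNAs alone was made. mt-Nd2 (-0.56, edgeR adjusted p = 0.0691) and mt-Nd4 (-0.52, edgeR adjusted p = 0.0952) had estimates of nearly the same size, and mt-Co2 was at 0.44 (edgeR adjusted p = 0.164). The difference between mt-Nd6 and mt-Nd2 was not tested. This fit called 87.1% of all 17997 genes, since nuclear genes were divided by the mitochondrial sum too, and the call for mt-Nd6 was lost when any of CTRL 1, CTRL 2, VA-free 1, VA-free 3 or the libraries VA-free 3B, CTRL 1A and CTRL 2B was left out, with estimates of -0.67 to -0.55 and edgeR adjusted p-values up to 0.195.

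**Figure D3:**
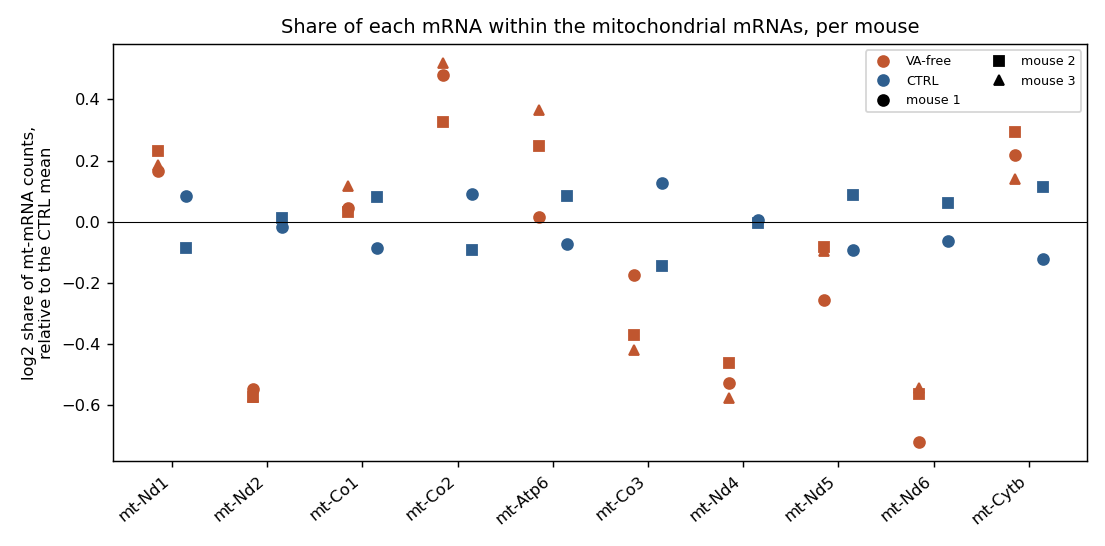
Log2 share of each of the 10 mRNAs within the summed mitochondrial mRNA counts, per mouse and relative to the CTRL mean (line at 0). The VA-free mice lie lowest for mt-Nd6, mt-Nd2 and mt-Nd4, highest for mt-Co2, and mix with the CTRL mice for mt-Co1, mt-Atp6 and mt-Nd5.

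**Figure D4:**
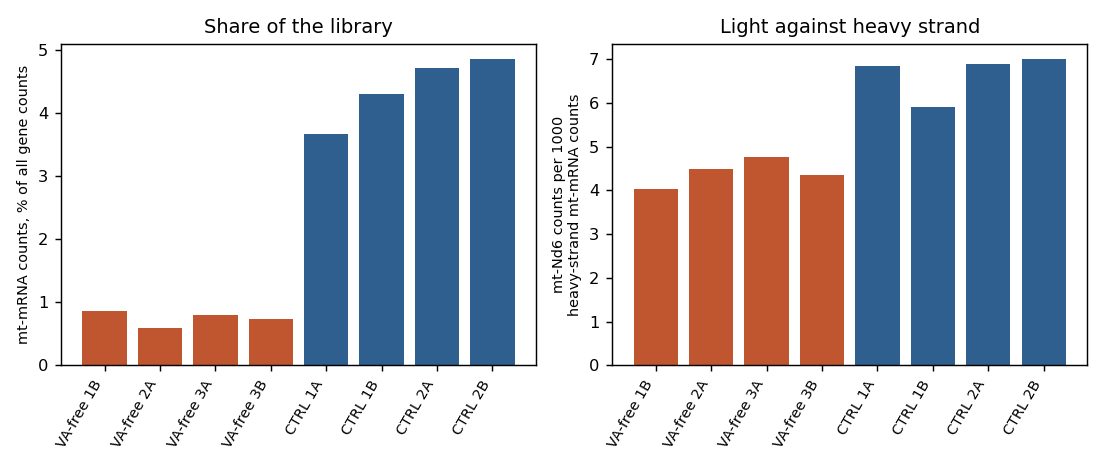
Mitochondrial mRNA counts as a percent of all gene counts (left) and mt-Nd6 counts per 1000 heavy-strand mRNA counts (right), 1 bar per library, VA-free in orange and CTRL in blue. VA-free libraries hold shares of 0.59% to 0.857% and ratios of 4.03 to 4.76, below the CTRL libraries with shares of 3.66% to 4.85% and ratios of 5.91 to 7.

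Across the 10 mRNAs, the log2 fold change had a Spearman rho of 0.65 with GC content, 0.00 with length, 0.38 with the CTRL level and -0.14 with the start position on the genome. These describe 10 genes that share the same libraries and, except for mt-Nd6, the same precursor.

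Libraries A and B of a mouse show the technical spread. The log2 ratio of B over A lay between -0.25 and 0.02 over the 10 mRNAs in VA-free mouse 3 and between 0.02 and 0.45 in CTRL mouse 1. In CTRL mouse 2 it ran from -0.57 to 0.74, as CTRL 2A had more mt-Co1 (12600 against 7590 CPM) and mt-Atp6 (6230 against 4410 CPM) but less mt-Co2 (2400 against 3590 CPM) and mt-Co3 (9300 against 13800 CPM) than CTRL 2B. In absolute log2 terms, the CPM spread within that mouse exceeded the relative diet difference for mt-Nd5, mt-Co1, mt-Co2, mt-Co3, mt-Cytb and mt-Atp6. For mt-Cytb it was -0.27 against 0.22. The spread is in CPM of the whole library, whereas the diet difference is relative to the mitochondrial sum. For mt-Nd1, 0.22 against 0.19 is too close to order on these unlike measures. The CPM spread was smaller for mt-Nd2, mt-Nd4 and mt-Nd6, at -0.08, -0.03 and 0.06. The share of mt-Cytb in CTRL 2A, 17.7%, lay within the 16.2% to 18.0% of the VA-free libraries. Without CTRL 2A the relative log2 fold change of mt-Co2 was 0.29 and without CTRL 2B it was 0.62.

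Part of the reads of 4 members and of mt-Nd3 was assigned to nuclear copies of mitochondrial DNA on chromosome 1, which are near-identical pseudogenes. The counts of these pairs are therefore uncertain. Gm10925 at chr1:24613974-24614651 matched mt-Atp6 over 678 bases with 0 mismatches, Gm28437 at chr1:24613189-24613971 matched mt-Co3 over 783 bases and Gm28661 at chr1:24614885-24615565 matched mt-Co2 over 681 bases, also with 0 mismatches. Gm29216 at chr1:24615706-24616197 matched mt-Co1 over 492 bases with 6 mismatches, counted from the 5′ end of mt-Co1 as T1056A, C1057T, A1059G, A1060G, C1062A and A1066T, all within its first 13 bases, and then without a mismatch over 479 bases. Gm28438 at chr1:24612775-24613119 differed from mt-Nd3 by T3C over 345 bases. The first 30 aligned bases of both pairs, with the differing bases in capitals, lie at chrM:6381-6410 and chr1:24616168-24616197 (minus strand), and at chrM:9459-9488 and chr1:24613090-24613119 (minus strand).
mt-Co1: ggTCtAAcCggaAttgttttatccaactca
Gm29216: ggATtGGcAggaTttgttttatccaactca
mt-Nd3: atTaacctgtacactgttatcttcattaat
Gm28438: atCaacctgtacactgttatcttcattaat

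Gm29216 took 27.2% to 31.0% of the counts of its pair with mt-Co1 in VA-free libraries and 37.3% to 41.8% in CTRL libraries. Gm28437 took 14.8% to 23.8% beside mt-Co3 in VA-free libraries and 5.35% to 9.8% in CTRL libraries, so the split moved with diet in opposite directions for these 2 pairs. Gm10925 held 20.1% to 36.7% beside mt-Atp6 on the VA-free diet and 27.0% to 30.9% on control chow. Beside mt-Co2, Gm28661 held 0.0982% to 6.94%. Gm13340 on chromosome 2 took at most 0.0308% beside mt-Co1. For mt-Nd3, Gm28438 held 77.1% to 85.2% in 7 libraries and 40.6% in CTRL 2A.

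With each copy added to its mitochondrial gene, the log2 fold change was -2.79 (SE 0.18) for mt-Co1, -2.76 (SE 0.20) for mt-Co3, -2.41 (SE 0.17) for mt-Atp6 and -2.13 (SE 0.18) for mt-Co2. mt-Co1 and mt-Co3, at -2.56 and -2.92 before, thus came to nearly the same value, and the share of mt-Co3 within the mitochondrial mRNAs overlapped between the diets, while the shares of mt-Co1 (lower) and mt-Atp6 (higher) no longer did. mt-Nd1, mt-Nd2, mt-Nd4, mt-Nd5, mt-Nd6 and mt-Cytb had no copy with a mean of 100 counts per mouse, and with copies added mt-Nd2 was at -3.19 and mt-Cytb at -2.42, the others being the same to 2 decimals.

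**Figure D5:**
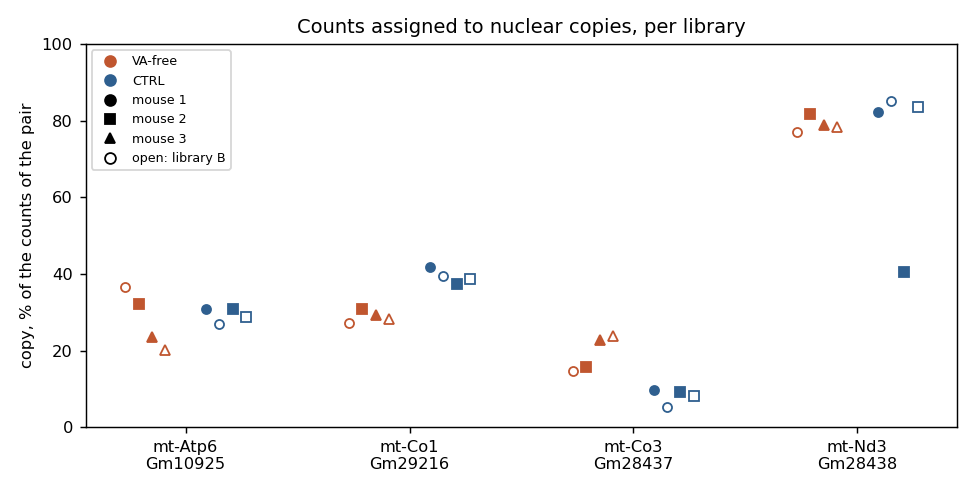
Counts assigned to a nuclear copy as a percent of the counts of copy and mitochondrial gene together, per library. The Gm29216 share is 27.2% to 31.0% in VA-free and 37.3% to 41.8% in CTRL libraries, the Gm28437 share 14.8% to 23.8% and 5.35% to 9.8%, and the Gm28438 share of CTRL 2A stands at 40.6%.

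Nuclear genes that make or degrade mitochondrial RNA moved in both directions, as genes at large did. Of 34 measured factors of mitochondrial DNA replication, transcription, RNA processing and decay, 10 were called higher, 6 lower and 18 neither, with a median log2 fold change of 0.17, where 22.5% of all genes were called lower and 41.4% in either direction. The list was thus near the shares of all genes, and the values that follow describe single genes. Slirp, the partner of Lrpprc in stabilising mitochondrial mRNA, was at 16.2 ± 0.755 CPM on the VA-free diet and 52.4 ± 0.683 CPM on control chow (SD, n = 3 and 2). Its log2 fold change was -1.69 (SE 0.12, edgeR adjusted p = 0.000252). The SD is over mice, and the libraries of CTRL mouse 2 differed more, at 67.4 CPM in 2A and 36.7 CPM in 2B. Lrpprc itself was higher, at 68.8 ± 3.32 against 42.2 ± 4.57 CPM (log2 fold change 0.70, edgeR adjusted p = 0.00419). Slirp is encoded by a short and Lrpprc by a long transcript, and with the length trend removed Slirp was at -1.07 (edgeR adjusted p = 0.00171) and Lrpprc at 0.15 (edgeR adjusted p = 0.398).

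Among the lower factors were also Hsd17b10, a subunit of mitochondrial RNase P (-1.16, edgeR adjusted p = 0.00075), the oligoribonuclease Rexo2 (-1.06, edgeR adjusted p = 0.000712) and the mitochondrial single-stranded DNA binding protein Ssbp1 (-1.05, edgeR adjusted p = 0.00234). Polg, the catalytic subunit of the mitochondrial DNA polymerase, was higher, at 147 ± 5.97 against 58.0 ± 15.8 CPM (log2 fold change 1.34, edgeR adjusted p = 0.00149). Libraries CTRL 2A and CTRL 2B of the same mouse held 21.1 and 72.6 CPM of Polg. The helicase Twnk (0.88, edgeR adjusted p = 0.0222), Fastkd1 (0.85, edgeR adjusted p = 0.0414) and the deadenylase Pde12 (0.76, edgeR adjusted p = 0.00399) were higher too, and Angel2 did not pass the test (-0.10, edgeR adjusted p = 0.629). With the length trend removed, 4 of the 34 were called higher and 3 lower. In that fit 2152 of all 17997 genes were called higher and 3158 lower. Besides Lrpprc, the calls of Twnk (0.45, edgeR adjusted p = 0.174), Fastkd1 (0.58, edgeR adjusted p = 0.142), Pde12 (0.12, edgeR adjusted p = 0.615) and Ssbp1 (-0.44, edgeR adjusted p = 0.0787) were lost there, while Polg (0.91), Hsd17b10 (-0.52) and Rexo2 (-0.48) passed the test.

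Nuclear-encoded subunits of the same complexes were mostly lower but by less. Of 36 complex I subunits, 34 were called lower (median log2 fold change -1.33), of 9 complex III subunits 9 (-1.01), of 12 complex IV subunits 12 (-1.34), and of 15 complex V subunits 10 with 1 higher (-1.13). For complex II, which has no mitochondrially encoded subunit, 2 of 4 were lower (-0.69). The most abundant subunit of each complex was, in turn, Ndufb8 of complex I at -1.67 (edgeR adjusted p = 0.000451), Cyc1 of complex III at -0.42 (edgeR adjusted p = 0.0158) and Cox4i1 of complex IV at -0.80 (edgeR adjusted p = 0.00218), while Sdha of complex II (-0.02, edgeR adjusted p = 0.919) and Atp5b of complex V (0.25, edgeR adjusted p = 0.135) did not pass the test. Of all 76 nuclear subunits, 67 were called lower, beside 22.5% of all genes and 36% of nuclear genes in the length range of the mitochondrial mRNAs. With the length trend removed 52 were lower, with a median of -0.60, beside 3158 of all 17997 genes called lower in that fit. The 52 were 30 of complex I, 2 of complex II, 4 of complex III, 8 of complex IV and 8 of complex V. In that fit the calls of Cyc1 and Cox4i1 were lost. Cyc1 lay on the other side of 0 at 0.25 (edgeR adjusted p = 0.12), and Cox4i1 was at -0.08 (edgeR adjusted p = 0.651). Ndufb8 was at -0.96 (edgeR adjusted p = 0.0079). Its level differed between the libraries of CTRL mouse 2, at 657 CPM in 2A and 202 CPM in 2B.

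The 10 nuclear genes most like the mean log2 level of the 10 mRNAs over the 8 libraries, among 9541 genes at 10 CPM or more, were Rsad2, Ncmap, Nudt14, Tnmd, Sesn3, Cnn1, Arl6, Dcn, Mylpf and Slc26a10, with Pearson r from 0.988 to 0.993. The libraries form 2 groups by diet and share mice, so r mainly restates the gap between diets. Tnmd is in the tenocyte list, Dcn in the list of fibro-adipogenic progenitors and Mylpf in the myofiber list. Dcn, a matrix proteoglycan, was at 50.7 to 88.6 CPM in the VA-free libraries and at 1130 to 1790 CPM in the CTRL libraries.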

How the data were processed

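RNA was sequenced single-end from 8 libraries of 5 mice after SMART-Seq v4 cDNA synthesis and Nextera XT preparation. The authors quantified reads with kallisto 0.46.2 (submitters' processing notes) on Ensembl 96 transcripts of GRCm38, and deposited estimated counts and TPM per transcript. Here both were summed per gene with GENCODE vM21 and the estimated counts of a mouse were added and rounded; 0.647% to 0.756% of counts had no gene. Labels call A and B technical replicates and the numbers biological replicates. Genes were filtered with filterByExpr, scaled by TMM and tested with edgeR 4.0.16 in R 4.3.3 at an adjusted p of 0.05, on 3 VA-free and 2 CTRL mice. DESeq2 1.42.0 and limma 3.58.1 were alternatives. Shares and ratios were tested by exact permutation over mice. The fits were tested on simulated data. Nuclear copies were annotated transcripts with 95% identity over at least 75 bases. The members, lists and rules for named genes (all mitochondrial mRNAs, copies with a mean of 100 counts per mouse, the most abundant and most changed list genes, the 10 most alike genes) were chosen with earlier results of these data known. One listed factor, Trmt61b, was not analysed here, nor were nuclear-retained RNAs.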

Additional observations from a re-analysis of the deposited data

Results flagged for a closer look

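Among 54 sets of 4 libraries of a diet (levels and shares of the 13 mitochondrial mRNAs and their sum), 6 had a library set apart from the other 3 by more than Dixon's 95% value, where chance flags about 1 in 20 sets, or 2.7. That number takes the libraries and sets as independent, whereas libraries A and B share a mouse and levels and shares share their counts. The level of mt-Co1 was 12600 CPM in CTRL 2A, with the next library at 7590 CPM, and 1140 CPM in VA-free 2A, with the next at 1530 CPM. As a share of the mitochondrial mRNA counts, mt-Co1 held 21.6% in VA-free 3B with the next library at 19.6%. In CTRL 2A, mt-Atp6 held 12.1% with the next library at 9.74%, and mt-Atp8 held 2.34% with the next at 1.61%. mt-Nd6 held 0.588% in CTRL 1B, with the next library at 0.679%. CTRL 2A accounts for 3 of the 6, and without it all 10 mRNAs were called lower by edgeR with adjusted p-values of at most 0.000427.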

How the results depend on the processing

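All 10 mRNAs were called lower under each of the 24 alternatives run, with p-values adjusted over all genes of at most 0.00808, reached without CTRL 2B. Their median log2 fold change of -2.67 was -2.27 with the length trend removed and -2.23 with TPM at either pseudocount, and -2.81 to -2.50 when a mouse or library was left out. The count of all genes called, 7459, was 4476 to 7744 under leaving out, lowest without CTRL 2B. Under leaving out, the diet difference of the mitochondrial share was -4.04 to -3.22 percentage points and that of the mt-Nd6 log2 ratio -0.68 to -0.55, and both kept their direction in all 14 and 16 alternatives run for them. In the relative fit, mt-Nd2 (-0.56, edgeR adjusted p = 0.0297) and mt-Nd4 (-0.55, edgeR adjusted p = 0.0432) passed without VA-free 2, and mt-Nd4l (-0.67) and mt-Atp8 (0.60) without CTRL 2A. The replicate numbers name different mice, and the deviations of same-numbered mice had correlations of -0.065 and 0.01. With 2 CTRL mice their deviations mirror each other, so these values cannot show whether a shared replicate effect was absent. With the number as a replicate block, 5242 genes were called and the median of the 10 was -2.74. The cause of these shifts was not tested. A fit without CTRL mouse 1 or CTRL mouse 2 rests on 1 CTRL mouse that is assumed to vary like the others. Counting depth is not the limit for transcripts at these levels.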
